A study of Mus musculus with 8 samples.

Results

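The G2 and mitosis genes are 40 genes of the cell division machinery, chosen by symbol: the mitotic kinase Cdk1 and its cyclins, other mitotic kinases, the chromosomal passenger complex, the spindle checkpoint, kinetochore and spindle proteins, cytokinesis factors, condensins, and proteins that start anaphase. Of the 40, 39 were measured among 12520 genes. Ccnb1, which encodes cyclin B1, has no probe set in the annotation used and is not analysed here. For a gene with several probe sets (groups of short probes for 1 transcript), the probe set with the highest mean over all arrays stands for the gene. The values come from 8 one-colour Affymetrix mouse arrays, 2 in each of 4 groups, of CD8 T cells from the spleens of C57BL/6 mice, enriched on magnetic beads. The groups were T cells lacking PKCθ with N4-loaded dendritic cells (PKCθ KO N4), T cells without p50 and cRel, both subunits of NF-kB, with N4-loaded dendritic cells (p50 cRel DKO N4), wild-type T cells with N4-loaded dendritic cells (WT N4), and wild-type T cells with dendritic cells that carried no added peptide (WT non-pulsed). N4 is an ovalbumin peptide, PKCθ is a kinase that relays the T cell receptor signal, and every culture lasted 18 h with 10 T cells per bone-marrow-derived dendritic cell before cells bearing CD11c were removed. Knockout T cells with non-pulsed dendritic cells are not analysed here, and the labels give neither the antigen receptor of the T cells nor the cell types in which the genes were deleted.

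A dividing cell copies its DNA in S phase, prepares in G2 and separates its chromosomes in mitosis. Cdk1 bound to cyclin A or B drives entry into mitosis, condensins compact the chromosomes, kinetochores join them to the spindle, and the spindle checkpoint holds back the anaphase-promoting complex until every chromosome is attached. Many of these genes are transcribed late in the cycle through promoters that carry a CHR element and CCAAT boxes, bound by the MuvB complex and by NF-Y. Resting T cells barely transcribe them, and a T cell stimulated through its receptor first grows and enters S phase before it divides. The WT non-pulsed cultures were not silent for these genes, whose median level there lay above that of all genes (values below). RNA was read from all cells left after those bearing CD11c were removed, so fewer cells in G2 or mitosis and less RNA per cell cannot be told apart. Markers of other cell types also differed between WT non-pulsed and N4 arrays (below), and their part was not tested.

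The promoter stretches of 6 members are shown because they hold the letters named above beside genes that took different courses with N4. Each is the 150 bases before the transcription start in RefSeq, build GRCm38.p6, read 5′ to 3′ on the gene's own strand. Capitals mark the CHR letters (TTTGAA), the CCAAT box and the E2F cores TTCGCGC and TTGGCGC, in either orientation. Cdk1 (chr10:69352913-69353062, minus strand), Ncapg (chr5:45669775-45669924, plus strand) and Top2a (chr11:99024190-99024339, minus strand) were higher with N4. Cdc20 (chr4:118437344-118437493, minus strand) and Ube2c (chr2:164769779-164769928, plus strand) did not pass the test, and Ccnb2 (chr9:70421555-70421704, minus strand) was lower with N4.
Cdk1: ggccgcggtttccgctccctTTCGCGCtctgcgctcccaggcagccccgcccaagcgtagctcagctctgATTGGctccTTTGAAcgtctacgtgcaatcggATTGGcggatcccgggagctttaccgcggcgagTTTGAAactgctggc
Ncapg: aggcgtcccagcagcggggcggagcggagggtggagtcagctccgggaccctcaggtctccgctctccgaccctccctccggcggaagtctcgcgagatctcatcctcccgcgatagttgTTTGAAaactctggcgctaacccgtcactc
Top2a: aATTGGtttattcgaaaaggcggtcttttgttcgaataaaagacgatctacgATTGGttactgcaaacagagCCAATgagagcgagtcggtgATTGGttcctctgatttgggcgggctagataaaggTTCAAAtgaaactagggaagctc
Cdc20: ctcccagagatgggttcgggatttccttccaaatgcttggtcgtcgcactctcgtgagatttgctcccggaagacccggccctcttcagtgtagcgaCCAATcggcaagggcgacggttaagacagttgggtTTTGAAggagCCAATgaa
Ube2c: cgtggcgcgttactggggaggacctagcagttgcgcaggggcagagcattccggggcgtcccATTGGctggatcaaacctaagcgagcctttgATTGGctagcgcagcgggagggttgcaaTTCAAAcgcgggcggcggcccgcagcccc
Ccnb2: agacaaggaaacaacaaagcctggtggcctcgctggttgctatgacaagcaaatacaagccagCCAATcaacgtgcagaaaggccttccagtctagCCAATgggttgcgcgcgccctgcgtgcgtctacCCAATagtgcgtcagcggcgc
CHR letters stand at positions -71 to -66 and -15 to -10 before the Cdk1 start, at -30 to -25 before that of Ncapg, at -18 to -13 before that of Cdc20 and, reversed, at -23 to -18 before that of Top2a and -29 to -24 before that of Ube2c. The stretch of Ccnb2 holds 3 CCAAT boxes in 1 orientation and no CHR letters, which lie outside it at -167 to -162 and past the start at 5 to 10.

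In wild-type cells with N4, Cdk1, Ccna2 and the 3 listed genes of the chromosomal passenger complex were higher. So were most measured genes of the spindle checkpoint and the condensin group, while Ccnb2 was lower. Plk1, Aurka, Nek2, Cdc20, Ube2c and Pttg1 did not pass the test. Of the 39 measured genes, 17 were higher and 1 was lower in WT N4 than in WT non-pulsed cells (limma, p under 0.05 after Benjamini-Hochberg adjustment over the 12520 genes), and 21 did not pass. Nothing in the labels ties the 2 arrays of each group to different animals or cultures, so p-values measure the spread between these arrays only, which may be technical; the 2 WT non-pulsed arrays differed in the sex-linked transcript Xist (below) and so were not repeats of 1 RNA. Over all genes tested, 40.7% were called, 17.2% higher and 23.5% lower. The median difference of the 39 genes was 0.56 on the log2(signal + 16) scale, a fold of 1.47, against -0.10 for all genes, and it ran from -1.84 to 1.58. Called rises of at least 2-fold were seen in 12 members, and the share of all genes with such rises was not counted. The groups of arrays did not overlap for 27 of the 39, or 69.2%, where 68.4% of all genes did not overlap. At an unadjusted p under 0.05, 23 of the 39 passed (21 higher, 2 lower), beside 48.4% of all genes. Below, a level is log2(signal + 16) on each array, given as replicates 1 and 2, and a difference is between group means on that scale, which understates the change of dim genes.

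**Figure D1:**
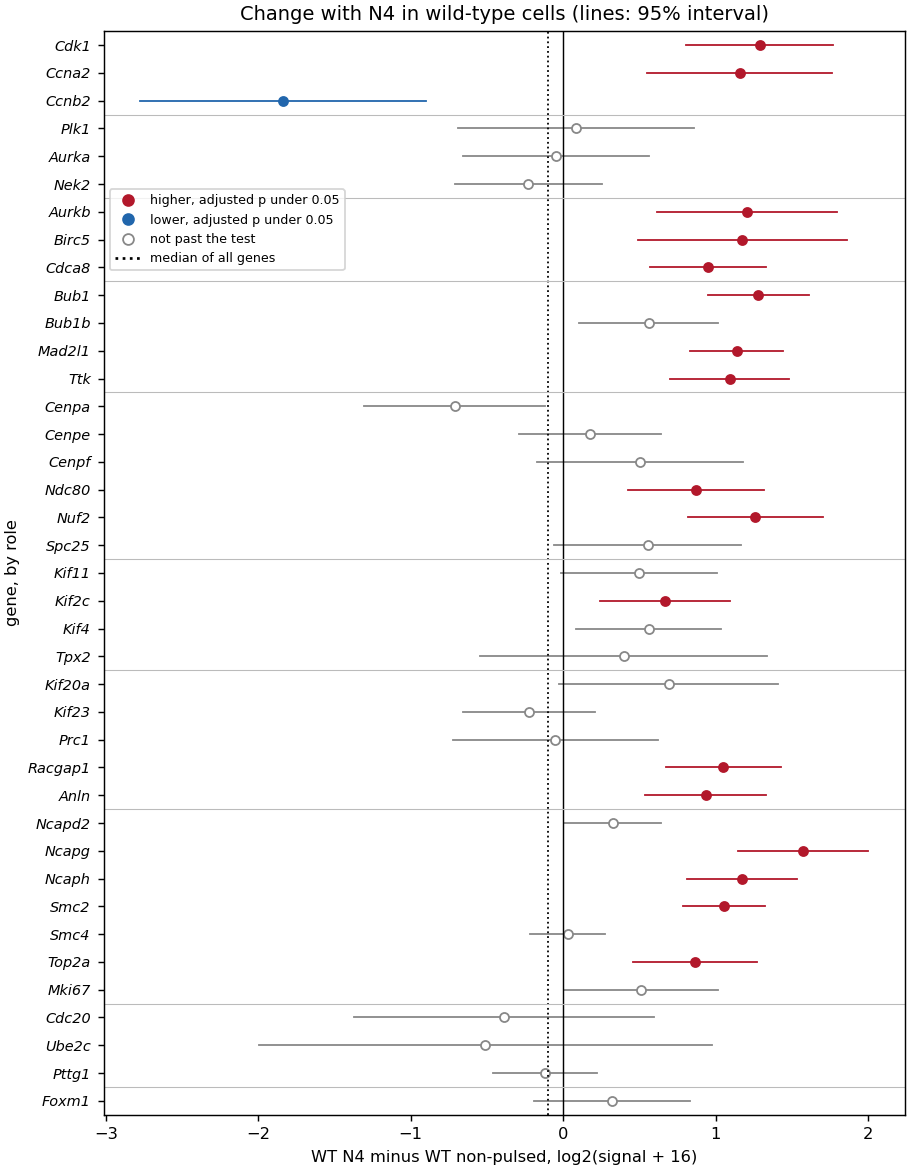
Difference between WT N4 and WT non-pulsed cells for the 39 measured genes, ordered by role (log2 scale, lines give the 95% interval of the limma fit, the dotted line the median of all genes at -0.10). The 17 red genes were higher and Ccnb2, in blue, was lower, while the kinases Plk1, Aurka and Nek2 and the anaphase group Cdc20, Ube2c and Pttg1 lie near or below 0.

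Among the cyclins and their kinase, 2 of 3 measured genes rose and 1 fell. Cdk1, the kinase that starts mitosis, had levels of 12.00 and 11.76 on PKCθ KO N4 arrays, 12.10 and 11.86 on p50 cRel DKO N4 arrays, 12.26 and 11.88 on WT N4 arrays and 11.04 and 10.52 on WT non-pulsed arrays. All 6 N4 arrays lay above both WT non-pulsed arrays, and the WT N4 difference was 1.29 (SE 0.21, 2.44-fold, adjusted p = 0.00156). Ccna2, cyclin A2, which acts from S phase into early mitosis, rose by 1.16 (SE 0.27, adjusted p = 0.00824). Ccnb2, cyclin B2, took the opposite course, with 8.50 and 7.78 on PKCθ KO N4 arrays, 8.92 and 8.87 on p50 cRel DKO N4 arrays, 9.05 and 7.87 on WT N4 arrays and 10.68 and 9.92 on WT non-pulsed arrays. Both WT non-pulsed arrays were the highest of the 8, and the WT N4 difference was -1.84 (SE 0.41, 3.57-fold lower, adjusted p = 0.00741). The Ccnb2 call was lost without WT non-pulsed replicate 1 (-1.46, adjusted p = 0.0533) and when each array was centred on its median.

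All 3 listed genes of the chromosomal passenger complex, which corrects faulty chromosome attachments and guides cytokinesis, were higher with N4. Aurkb, its kinase, had 11.11 and 10.80 on PKCθ KO N4 arrays, 11.21 and 11.01 on p50 cRel DKO N4 arrays, 11.42 and 10.98 on WT N4 arrays and 10.37 and 9.62 on WT non-pulsed arrays. Birc5, survivin, had 12.02 and 11.54 on PKCθ KO N4 arrays, 12.21 and 11.86 on p50 cRel DKO N4 arrays, 12.36 and 11.60 on WT N4 arrays and 11.12 and 10.48 on WT non-pulsed arrays. For both genes every N4 array exceeded both WT non-pulsed arrays. The WT N4 differences were 1.20 for Aurkb (SE 0.26, adjusted p = 0.00616) and 1.18 for Birc5 (SE 0.30, adjusted p = 0.0138). Cdca8, borealin, differed by 0.95 (SE 0.17, adjusted p = 0.00219). Its other probe sets differed by 0.95 and 0.80 without passing (adjusted p = 0.0979 and 0.0726 by limma over probe sets). The spindle checkpoint rose in 3 of 4 genes. Bub1, a checkpoint kinase, had 11.38 and 11.54 on PKCθ KO N4 arrays, 11.49 and 11.61 on p50 cRel DKO N4 arrays, 11.54 and 11.52 on WT N4 arrays and 10.38 and 10.12 on WT non-pulsed arrays. Mad2l1, the Mad2 protein that restrains the anaphase-promoting complex, had 12.77 and 12.79 on PKCθ KO N4 arrays, 12.71 and 12.78 on p50 cRel DKO N4 arrays, 12.80 and 12.69 on WT N4 arrays and 11.75 and 11.46 on WT non-pulsed arrays. The N4 arrays of these 2 genes lay close together and about 1 log2 unit or more above WT non-pulsed cells, with WT N4 differences of 1.28 for Bub1 and 1.14 for Mad2l1 (adjusted p = 0.000242 and 0.00029). Ttk, the kinase also called Mps1, rose by 1.09 (adjusted p = 0.00122), and Bub1b, BubR1, differed by 0.56 without passing (adjusted p = 0.0526). Another Bub1b probe set of similar level passed at 0.70 (adjusted p = 0.048 by limma over probe sets), and a dimmer one differed by -0.46 without passing.

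The condensins and chromosome proteins held the largest rise, and 4 of 7 passed. Ncapg, a condensin I subunit, had 10.54 and 10.83 on PKCθ KO N4 arrays, 10.76 and 10.92 on p50 cRel DKO N4 arrays, 10.83 and 10.91 on WT N4 arrays and 9.51 and 9.08 on WT non-pulsed arrays. Its WT N4 difference of 1.58 (SE 0.19, 2.98-fold, adjusted p = 0.00031) was the largest among the 39. A dimmer Ncapg probe set differed by 1.49 without passing (adjusted p = 0.16 by limma over probe sets). Smc2, the condensin ATPase, had 12.56 and 12.67 on PKCθ KO N4 arrays, 12.69 and 12.77 on p50 cRel DKO N4 arrays, 12.64 and 12.76 on WT N4 arrays and 11.65 and 11.64 on WT non-pulsed arrays. It rose by 1.06 with little spread between arrays (SE 0.12), and had the lowest adjusted p of the set, 0.000232. That call rests on 1 probe set: 4 others of Smc2 differed by 1.03 to 1.49 without passing (adjusted p over probe sets 0.112 to 0.274), and the mean of all 5 was 1.23 higher without passing (adjusted p = 0.0625). Ncaph, the condensin I kleisin subunit, had 11.94 and 11.69 on PKCθ KO N4 arrays, 11.21 and 11.40 on p50 cRel DKO N4 arrays, 11.55 and 11.74 on WT N4 arrays and 10.36 and 10.58 on WT non-pulsed arrays, a WT N4 difference of 1.17 (adjusted p = 0.000588). Top2a, the topoisomerase that untangles sister chromosomes, had 12.82 and 12.50 on PKCθ KO N4 arrays, 13.23 and 13.13 on p50 cRel DKO N4 arrays, 13.11 and 12.91 on WT N4 arrays and 12.37 and 11.92 on WT non-pulsed arrays. It rose by 0.86 in WT N4 cells (SE 0.18, 1.82-fold, adjusted p = 0.00504). Smc4, the partner of Smc2, differed by 0.03 (95% interval -0.22 to 0.28) and Ncapd2, another condensin I subunit, by 0.33 (adjusted p = 0.0963). Mki67, the Ki-67 protein that coats mitotic chromosomes and is widely stained as a mark of cycling cells, had 11.43 and 10.76 on PKCθ KO N4 arrays, 11.83 and 11.99 on p50 cRel DKO N4 arrays, 11.86 and 11.70 on WT N4 arrays and 11.42 and 11.11 on WT non-pulsed arrays. Both WT N4 arrays exceeded both WT non-pulsed arrays, by 0.51 on average (SE 0.22), and the difference did not pass (adjusted p = 0.0983).

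At the centromere and kinetochore, 2 of 6 genes rose, both subunits of the NDC80 complex that holds microtubules. Nuf2 had 10.75 and 10.40 on PKCθ KO N4 arrays, 10.95 and 11.13 on p50 cRel DKO N4 arrays, 11.08 and 10.75 on WT N4 arrays and 9.81 and 9.50 on WT non-pulsed arrays. Ndc80 had 9.25 and 9.36 on PKCθ KO N4 arrays, 9.53 and 9.88 on p50 cRel DKO N4 arrays, 9.60 and 9.26 on WT N4 arrays and 8.56 and 8.55 on WT non-pulsed arrays. Neither gene's N4 arrays overlapped the WT non-pulsed arrays, and the WT N4 differences were 1.26 for Nuf2 and 0.87 for Ndc80 (adjusted p = 0.00117 and 0.0073). Spc25, another subunit of the complex, differed by 0.55 (adjusted p = 0.138). Cenpa, the histone variant that marks the centromere, had 10.57 and 10.36 on PKCθ KO N4 arrays, 11.02 and 10.87 on p50 cRel DKO N4 arrays, 10.72 and 9.91 on WT N4 arrays and 11.23 and 10.82 on WT non-pulsed arrays. WT N4 cells lay below WT non-pulsed cells, with a difference of -0.71 on the main probe set (adjusted p = 0.0574), and another Cenpa probe set passed at -0.84 (adjusted p = 0.0371 over probe sets). The kinetochore motor Cenpe differed by 0.18 and the large kinetochore protein Cenpf by 0.50, neither past the test.

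Among 4 spindle motors and microtubule proteins only Kif2c, which takes microtubules apart at the kinetochore, rose, by 0.67 (SE 0.19, adjusted p = 0.020). Kif11, the motor that pushes spindle poles apart, differed by 0.50, the chromosome motor Kif4 by 0.56 and Tpx2, an activator of Aurka, by 0.40, with adjusted p of 0.111, 0.0601 and 0.491. Of the 5 central spindle and cytokinesis genes, Racgap1 rose by 1.05 and Anln by 0.93 (adjusted p = 0.0013 and 0.00312). Racgap1 is a subunit of centralspindlin and Anln, anillin, is a scaffold of the contractile ring. The other centralspindlin subunit, Kif23, had 9.27 and 8.85 on PKCθ KO N4 arrays, 9.80 and 9.90 on p50 cRel DKO N4 arrays, 9.53 and 9.47 on WT N4 arrays and 9.85 and 9.60 on WT non-pulsed arrays. Kif23 was lower on both WT N4 arrays than on both WT non-pulsed arrays, with a mean difference of -0.22, and did not pass (adjusted p = 0.395). Prc1, which bundles central spindle microtubules, differed by -0.05, and the cytokinesis motor Kif20a by 0.69 (adjusted p = 0.911 and 0.115).

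None of the 3 mitotic kinases Plk1, Aurka and Nek2 and none of the 3 anaphase genes Cdc20, Ube2c and Pttg1 passed the test with N4. Plk1, which acts from mitotic entry to cytokinesis, had 9.66 and 8.94 on PKCθ KO N4 arrays, 9.90 and 10.00 on p50 cRel DKO N4 arrays, 10.35 and 9.56 on WT N4 arrays and 10.22 and 9.52 on WT non-pulsed arrays. Replicate 1 was above replicate 2 in 3 of the 4 groups, and the WT N4 difference was 0.09 (95% interval -0.69 to 0.86). Aurka, the spindle pole kinase, differed by -0.05 (-0.66 to 0.56) and Nek2, a centrosome kinase, by -0.23 (-0.71 to 0.25). Ube2c, the ubiquitin-conjugating enzyme of the anaphase-promoting complex, had 11.21 and 9.53 on PKCθ KO N4 arrays, 11.60 and 11.08 on p50 cRel DKO N4 arrays, 12.03 and 10.34 on WT N4 arrays and 12.23 and 11.16 on WT non-pulsed arrays. The spread within groups was the widest of the set, so its difference of -0.51 has a 95% interval of -2.00 to 0.98. Cdc20, the activator of that complex, had 11.61 and 10.65 on PKCθ KO N4 arrays, 11.63 and 11.63 on p50 cRel DKO N4 arrays, 12.12 and 10.82 on WT N4 arrays and 12.17 and 11.55 on WT non-pulsed arrays, with a difference of -0.39 (adjusted p = 0.524). Pttg1, securin, had 12.20 and 12.21 on PKCθ KO N4 arrays, 12.01 and 11.74 on p50 cRel DKO N4 arrays, 12.21 and 12.12 on WT N4 arrays and 12.43 and 12.14 on WT non-pulsed arrays. Its main probe set differed by -0.12 (adjusted p = 0.571), and another one was lower at -1.11 (adjusted p = 0.0316 over probe sets). Foxm1, a transcription factor of the late cell cycle, had 8.21 and 8.04 on PKCθ KO N4 arrays, 8.65 and 8.35 on p50 cRel DKO N4 arrays, 8.67 and 8.28 on WT N4 arrays and 8.26 and 8.05 on WT non-pulsed arrays. Both WT N4 arrays were just above both WT non-pulsed arrays, and the difference of 0.32 did not pass (adjusted p = 0.295).

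**Figure D2:**
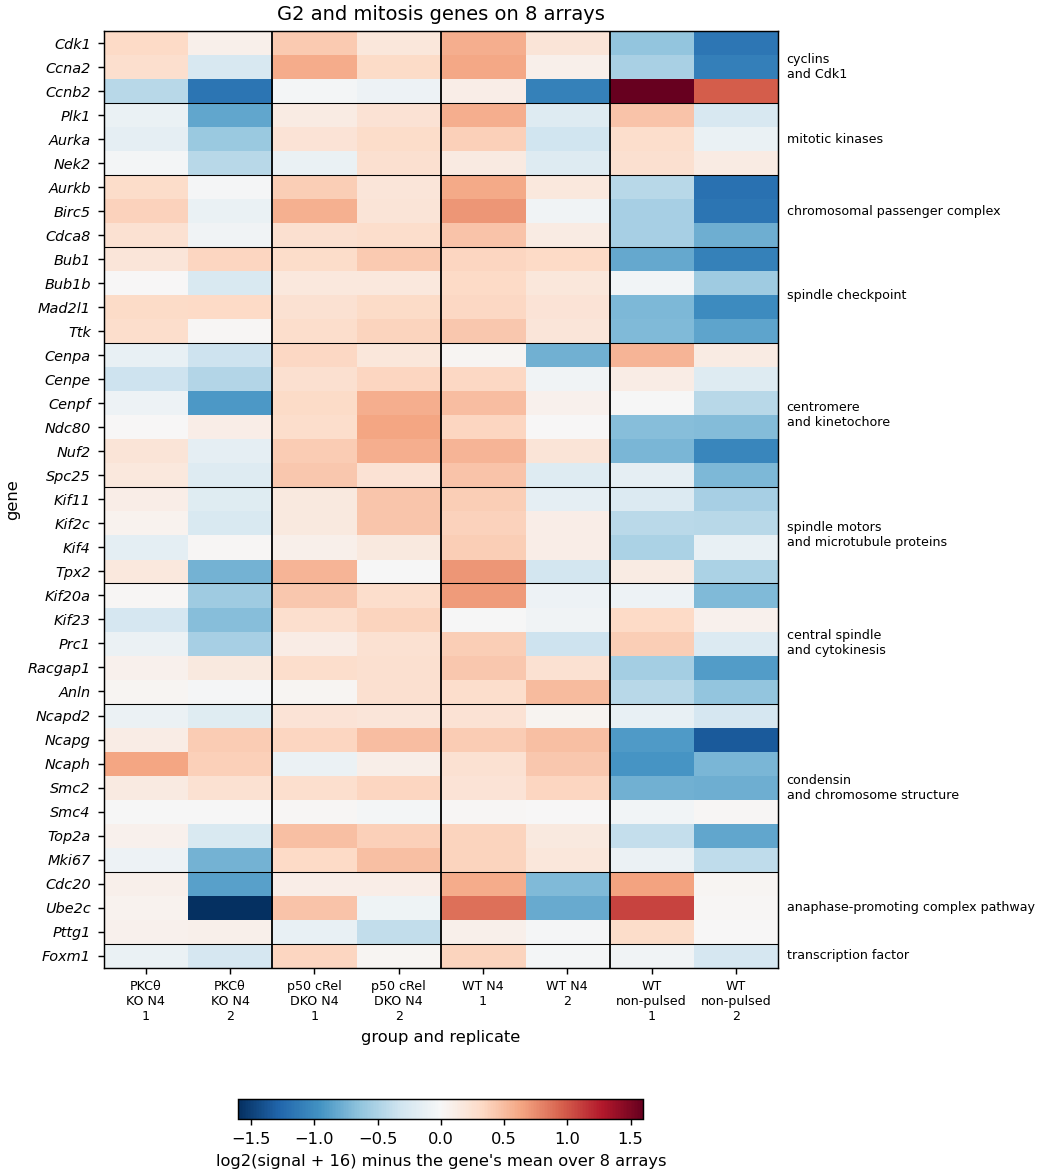
Level of each of the 39 genes on each of the 8 arrays, as log2(signal + 16) minus the gene's mean over the arrays (red above, blue below), with genes grouped by role. Cdk1, Ncapg and Nuf2 are blue on the WT non-pulsed arrays and red on most N4 arrays, Ccnb2 is the reverse, and Ube2c and Cdc20 differ widely between the replicates of PKCθ KO N4 and of WT N4.

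In 3 of the 4 groups most of the 39 genes were lower in replicate 2. Replicate 2 was lower than replicate 1 for 30 of them in PKCθ KO N4 cells, 18 in p50 cRel DKO N4 cells, 35 in WT N4 cells and 36 in WT non-pulsed cells, where about 50%, 46.8%, 45.8% and 49.7% of all genes were lower in replicate 2. The widest gap was that of Ube2c, -1.68 in PKCθ KO N4 cells and -1.68 in WT N4 cells. The median level of the set was 10.54 and 10.29 on PKCθ KO N4 arrays, 10.76 and 10.73 on p50 cRel DKO N4 arrays, 10.72 and 10.29 on WT N4 arrays, and 10.30 and 9.67 on WT non-pulsed arrays. So the second WT N4 array stood level with the first WT non-pulsed array by this measure, and 21 of the 39 genes had their lowest level on WT non-pulsed replicate 2. Without that array the median WT N4 difference was 0.36 in place of 0.56. The median of all genes was 9.37 on both WT non-pulsed arrays, below that of the set, so these cultures already held RNA of many of the 39 genes. Which cells in the WT non-pulsed cultures held that RNA was not tested. Leaving out each array in turn kept 13 of the 18 calls throughout, and Ccnb2 was lost as given above. Ccna2 and Birc5 were lost without WT N4 replicate 1 and without WT non-pulsed replicate 2, Ndc80 without WT N4 replicate 1, and Kif2c without WT N4 replicate 1 or without either WT non-pulsed array.

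**Figure D3:**
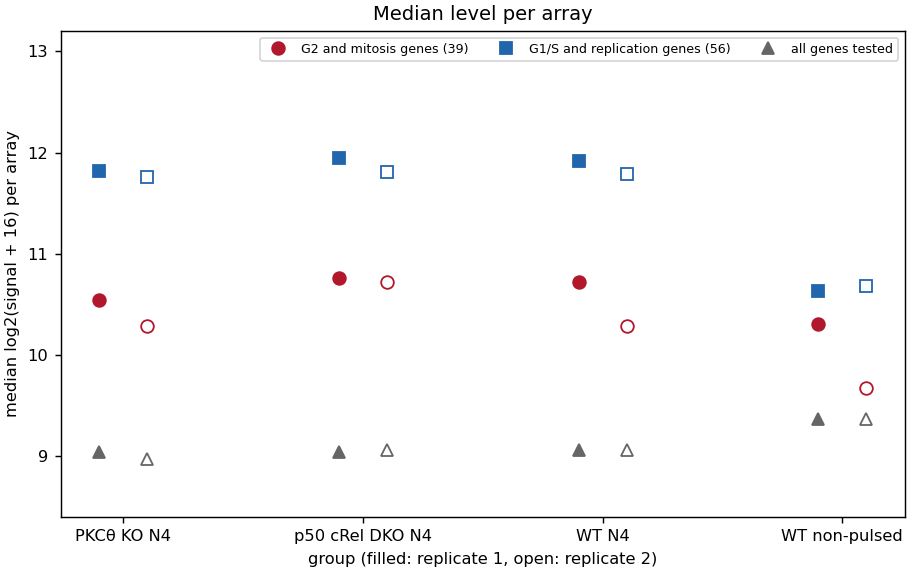
Median log2(signal + 16) per array of the 39 G2 and mitosis genes, of 56 genes of S phase entry and DNA replication, and of all genes tested, with replicate 1 filled and replicate 2 open. The G2 and mitosis medians run from 9.67 to 10.76 and differ between replicates, while the replication medians lie at 11.76 or above on all N4 arrays and at or below 10.68 on WT non-pulsed arrays.

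Other genes of the same processes were counted for comparison. Of 61 measured other G2 and mitosis genes, 32 were higher and 2 lower in WT N4 than in WT non-pulsed cells, with a median of 0.61. The lowest p-values, with the differences in parentheses, belonged to Cenpi, a centromere protein (1.98), Esco2, which locks sister chromosome cohesion (1.65), the condensin II subunit Ncapg2 (1.26) and Shcbp1 (1.59), and the lower ones were Cdkn3 (-2.56), a phosphatase that acts on cyclin-dependent kinases, and Psrc1 (-1.44), both named after their values were seen. Among 17 subunits and regulators of the anaphase-promoting complex, 6 were higher and 1 lower, led by Fbxo5, an inhibitor of the complex also called Emi1 (1.66, adjusted p = 0.000162), with Cdc16 (0.56) and Anapc15 (0.94) higher and Anapc13 (-0.53) lower. Of 15 genes of the MuvB and DREAM complexes, B-Myb and NF-Y, which read the CHR and CCAAT letters or hold such promoters silent, 6 were higher and 1 lower. Mybl2, B-Myb, rose by 1.76, Tfdp1 by 1.07 and Nfyb by 0.69, and Rbl2, the p130 repressor of resting cells, fell by 1.73 (adjusted p = 0.00011). Of 56 genes of S phase entry and DNA replication, 50 were higher and 1, Ccnd1, was lower, with a median of 1.13, among them Cdc6 (2.24), Mcm10 (1.82), Ccne2 (2.48) and Prim1 (1.32).

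Markers of other cell types differed between the WT non-pulsed arrays and the N4 arrays. CD8 T cell markers summed to signals of 56206 to 56829 on PKCθ KO N4, 44761 to 55615 on p50 cRel DKO N4, 40100 to 45446 on WT N4 and 34239 to 37134 on WT non-pulsed arrays (7 of 8 markers measured). Gene by gene, 3 of the 7 were higher and 0 lower in WT N4 than in WT non-pulsed cells, with a median log2 difference of 0.006. B cell markers (12 of 13 measured) summed to 7293 to 11889 on PKCθ KO N4, 10780 to 12093 on p50 cRel DKO N4, 5107 to 10574 on WT N4 and 47174 to 66478 on WT non-pulsed arrays, and all 12 were lower in WT N4 than in WT non-pulsed cells. Dendritic cell and macrophage markers (15 of 16 measured, 13 lower in WT N4) summed to 11280 to 17047 on PKCθ KO N4, 10319 to 10426 on p50 cRel DKO N4, 6993 to 17327 on WT N4 and 88035 to 106585 on WT non-pulsed arrays. Neutrophil markers (8 of 10 measured, all 8 lower in WT N4) summed to 434 to 751 on PKCθ KO N4, 471 to 554 on p50 cRel DKO N4, 316 to 869 on WT N4 and 24056 to 26768 on WT non-pulsed arrays. None of the measured markers was at 0 on any array, and no marker passed the test between a knockout and WT N4. The part of these cells in the differences from WT non-pulsed cells was not tested. The 3' to 5' signal ratio ranged from 0.778 to 0.861 for Gapdh and from 1.03 to 1.20 for actin, the median signal from 33.8 to 70.5, and the correlation of replicate arrays across genes (Pearson) from 0.977 to 0.987.

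The targeted genes were read before the knockouts were compared. Prkcq, which encodes PKCθ, had 11.00 and 10.75 on PKCθ KO N4 arrays and 11.74 and 11.35 on WT N4 arrays, a difference that did not pass, and the sources do not place its probes relative to the deletion. Rel, which encodes cRel, had 6.19 and 5.92 on p50 cRel DKO N4 arrays and 9.82 and 9.53 on WT N4 arrays. Nfkb1, which encodes p50, is not analysed here. Sex-linked transcripts differ as well: Xist had 12.44 and 12.33 on PKCθ KO N4, 12.57 and 12.27 on p50 cRel DKO N4, 5.18 and 6.65 on WT N4, and 6.05 and 11.84 on WT non-pulsed arrays, and the Y-linked Eif2s3y was at 5.42 to 6.73 on knockout arrays and 10.65 to 11.20 on wild-type arrays. Genotype and sex of the mice therefore cannot be told apart in any comparison of a knockout with wild type, and WT non-pulsed replicate 2 carried both transcripts.

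Without PKCθ, no G2 or mitosis gene passed the test in N4-stimulated cells, and most genes lay lower than in wild type by sign. Of the 39 genes, 0 were called between PKCθ KO N4 and WT N4 cells (limma, adjusted p = 1.00 for each), where 0.024% of all genes were called. The sign was lower for 35 and higher for 4, where 53.5% of all genes were lower. The median difference was -0.32 against -0.02 for all genes. Between the 2 WT N4 arrays alone, replicate 2 lay below replicate 1 for 35 of the 39, with a median difference of -0.34. Members that shift together between arrays are not separate observations, so the count by sign is not a test of genotype. At an unadjusted p under 0.05 there were 4 members, all lower, beside 2.96% of all genes. They were Mki67 (-0.69, SE 0.22), the kinetochore genes Cenpf (-0.78, SE 0.30) and Cenpe (-0.54, SE 0.20), and Kif23 (-0.44, SE 0.19). Cenpf had 9.34 and 8.51 on PKCθ KO N4 arrays, 9.73 and 10.00 on p50 cRel DKO N4 arrays, 9.92 and 9.50 on WT N4 arrays and 9.42 and 8.99 on WT non-pulsed arrays. Cenpe had 8.72 and 8.58 on PKCθ KO N4 arrays, 9.31 and 9.40 on p50 cRel DKO N4 arrays, 9.38 and 8.99 on WT N4 arrays and 9.17 and 8.85 on WT non-pulsed arrays. Both Cenpe levels in PKCθ KO N4 cells were below every other array, and Cenpf was lowest on PKCθ KO N4 replicate 2.

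The groups of arrays did not overlap for 14 members between PKCθ KO N4 and WT N4, all lower in the knockout (35.9%), where 25.8% of all genes did not overlap. Anln, the gene with the fifth lowest p, had 9.36 and 9.31 on PKCθ KO N4 arrays, 9.36 and 9.58 on p50 cRel DKO N4 arrays, 9.61 and 9.83 on WT N4 arrays and 8.88 and 8.69 on WT non-pulsed arrays, so the PKCθ KO N4 level lay between the wild-type groups. Among genes that rose with N4 in wild-type cells, Cdk1 differed by -0.19 (95% interval -0.67 to 0.29), Ncapg by -0.18 (-0.61 to 0.25), Bub1 by -0.07 (-0.40 to 0.26) and Mad2l1 by 0.04 (-0.27 to 0.34). Plk1 differed by -0.66 (-1.43 to 0.12) and Ube2c, the lowest value of the set, by -0.82 (-2.30 to 0.67). Ncaph had the highest, 0.17 (-0.19 to 0.53). The median of the set was -0.05 without WT N4 replicate 1, -0.14 without PKCθ KO N4 replicate 2 and -0.46 without WT N4 replicate 2.

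Without p50 and cRel, no G2 or mitosis gene passed either: 0 of 39 were called between p50 cRel DKO N4 and WT N4 cells, where 0.519% of all genes were called. The median difference was 0.06, with 27 genes higher and 12 lower, and it turned to -0.13 without WT N4 replicate 2 and was 0.27 without WT N4 replicate 1. Cenpa was the single member with an unadjusted p under 0.05, at 0.63 (SE 0.26, adjusted p = 0.715 by limma), where 6.29% of all genes had such a p. Its level in p50 cRel DKO N4 cells exceeded both WT N4 arrays and lay within the range of WT non-pulsed cells. The next lowest p-values belonged to Ncaph (-0.34, adjusted p = 0.858), Pttg1 (-0.29, 0.949), Kif23 (0.35, 0.985) and Ndc80 (0.28, 1.00). Ncaph and Pttg1 were lower on both knockout arrays than on both WT N4 arrays, Kif23 was higher on both, and Ndc80 overlapped. The groups did not overlap for 7 members, 17.9%, where 30.5% of all genes did not. The 95% interval was -0.57 to 0.39 for Cdk1, -0.37 to 0.63 for Mki67, -0.24 to 0.58 for Top2a and -0.78 to 0.77 for Plk1.

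The 2 knockouts were also set against each other under N4, and again 0 of 39 members were called, where 0.431% of all genes were. By sign, 36 of 39 genes were higher in p50 cRel DKO N4 than in PKCθ KO N4 cells, where 52.7% of all genes were higher. The median was 0.35 against 0.02 for all genes, and 0.19 without PKCθ KO N4 replicate 2. Between the 2 PKCθ KO N4 arrays alone, replicate 2 lay below replicate 1 for 30 of the 39, with a median difference of -0.31. Unadjusted p-values under 0.05 were found for 9 members, 8 higher and 1 lower, beside 7.16% of all genes. The lowest were those of Kif23 (0.79, SE 0.19, adjusted p = 0.216 by limma), Mki67 (0.81, adjusted p = 0.31), Cenpe (0.70, 0.371), Ncaph (-0.51, 0.433) and Cenpf (0.94, 0.449). The others were Top2a (0.52), Ncapd2 (0.35), Nuf2 (0.46) and Aurka (0.62). The arrays did not overlap for 28 members, 71.8%, of which 26 were higher in the double knockout, where 33.9% of all genes did not overlap. Kif23 was at 9.80 and 9.90 in p50 cRel DKO N4 cells and at 9.27 and 8.85 in PKCθ KO N4 cells, and PKCθ KO N4 replicate 2 had the lowest level of the 8 arrays for 13 members.

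**Figure D4:**
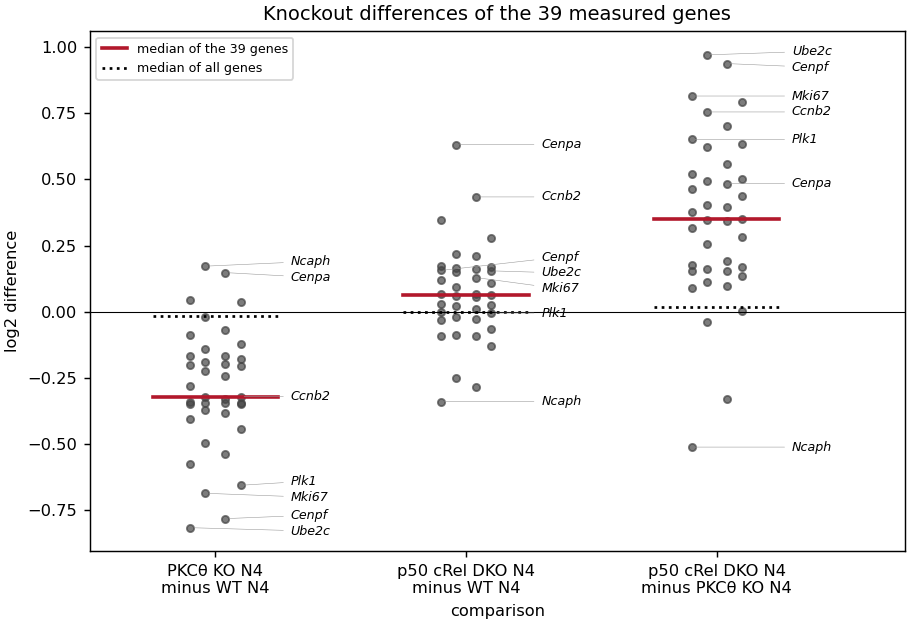
Difference of each of the 39 genes (points, log2 scale) in PKCθ KO N4 minus WT N4, p50 cRel DKO N4 minus WT N4, and p50 cRel DKO N4 minus PKCθ KO N4 cells, with the median of the set (red) and of all genes (dotted). The medians are -0.32, 0.06 and 0.35, and no gene passed the test in any of the 3 comparisons, which share arrays.

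Each knockout with N4 was compared with WT non-pulsed cells too, where peptide and genotype differ together and the non-pulsed arrays are shared with the wild-type comparison. In PKCθ KO N4 cells, 16 of 39 members were higher and 2 lower (limma; 40.6% of all genes called, 16.5% higher and 24% lower), with a median of 0.24. In p50 cRel DKO N4 cells, 19 were higher and 1 lower (39.3% of all genes called, 16.5% higher and 22.8% lower), with a median of 0.67. The arrays did not overlap for 24 members in PKCθ KO N4 (68.8% of all genes) and for 29 in p50 cRel DKO N4 cells (70.5% of all genes). Unadjusted p-values under 0.05 were found for 18 members in PKCθ KO N4 (48.1% of all genes) and for 25 in p50 cRel DKO N4 cells (47.5% of all genes). Called rises of at least 2-fold numbered 5 in PKCθ KO N4 and 12 in p50 cRel DKO N4 cells, again without a count over all genes. Cdk1 differed by 1.10 in PKCθ KO N4, 1.20 in p50 cRel DKO N4 and 1.29 in WT N4 cells, and Bub1 by 1.21 in PKCθ KO N4, 1.30 in p50 cRel DKO N4 and 1.28 in WT N4 cells. Ccnb2 was lower in every N4 group, at -2.16 (adjusted p = 0.00341) in PKCθ KO N4, -1.40 (adjusted p = 0.0255) in p50 cRel DKO N4 and -1.84 in WT N4 cells. When each array was centred on its median, the p50 cRel DKO N4 difference of Ccnb2 was -1.01 and did not pass, and its call was also lost without WT non-pulsed replicate 1 or without either p50 cRel DKO N4 array. Kif23 was lower in PKCθ KO N4 cells (-0.67, adjusted p = 0.0221) and differed by 0.12 in p50 cRel DKO N4 cells (adjusted p = 0.653), and its PKCθ KO N4 call was lost without WT non-pulsed replicate 1 or PKCθ KO N4 replicate 2, with quantile scaling, with centred arrays, with probe sets averaged and with these groups fitted alone. Mki67 differed by -0.17 (adjusted p = 0.577) in PKCθ KO N4 and 0.64 (adjusted p = 0.0475) in p50 cRel DKO N4 cells. Leaving out each array in turn kept 10 of 18 calls in PKCθ KO N4 and 13 of 20 in p50 cRel DKO N4 cells. The PKCθ KO N4 median was 0.13 without WT non-pulsed replicate 2, 0.43 without WT non-pulsed replicate 1 and 0.41 without PKCθ KO N4 replicate 2, and without WT non-pulsed replicate 2 the differences of Ccna2, Aurkb and Top2a shrank to 0.53, 0.59 and 0.29 and lost their calls. The Top2a call in PKCθ KO N4 cells and the Mki67 call in p50 cRel DKO N4 cells were each kept in 2 of 8 such fits.

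In none of the comparisons among N4-stimulated groups did a gene of the other lists pass. Their medians between PKCθ KO N4 and WT N4 cells were -0.21 for the other G2 and mitosis genes and -0.01 for the genes of S phase entry and replication, and between p50 cRel DKO N4 and WT N4 cells they were 0.06 and 0.03. Against WT non-pulsed cells, 28 of 61 other G2 and mitosis genes were higher and 4 lower in PKCθ KO N4 cells, and 35 were higher and 2 lower in p50 cRel DKO N4 cells. Of the 56 S phase genes, 51 were higher in PKCθ KO N4 and 52 in p50 cRel DKO N4 cells, with 0 lower in either.

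Of the 39 genes, 28 had 50 further probe sets, of which 43 passed the filter on dim probe sets and were tested. Between WT N4 and WT non-pulsed cells, 6 of the 43 were called higher and 2 lower, where 40.7% of all genes were called. Most further probe sets were thus not called. In sign, 42 of the 50 matched the main probe set, the called ones among them. The 8 of opposite sign belonged to Prc1, Top2a, Tpx2, Ncapd2, Foxm1, Bub1b, Cenpf and Spc25, differed by between -0.46 (Bub1b) and 0.26 (Prc1), and did not pass. Those of Top2a and Foxm1 were below the filter on dim probe sets. Another probe set of Aurkb rose by 1.26 and another of Ccna2 by 1.15 (adjusted p over probe sets = 0.0018 and 0.0061). Further probe sets of Racgap1 (0.66), Ncaph (0.80) and Top2a (0.95) also passed. Those of Bub1 (0.62), Ttk (0.35), Anln (0.52) and Kif2c (0.06 to 0.62) did not (adjusted p over probe sets 0.0793 to 0.934).

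The promoter letters were counted in RefSeq windows from 250 bases before to 50 after the start, on both strands, for the 34 members with an entry. CHR letters were found in 25 members (73.5%), CCAAT in 26 (76.5%) and both in 22 (64.7%). Among genes tested on the arrays the shares were 14.4%, 42.6% and 5.6%, and among genes of S phase entry and replication 19.1%, 59.6% and 10.6%. The other G2 and mitosis genes held both letters in 44.0%. E2F cores stood in 5 members (14.7%), in 34.0% of the S phase genes and in 8.05% of genes tested. Both CHR and CCAAT letters were present in 7 of the 15 promoters of members that rose with N4 in wild-type cells, in 14 of 17 that did not pass and in that of Ccnb2. Of 32 CHR matches in members, 15 lay wholly before the start, and 2 pairs of matches to different motifs overlapped. Prc1 has 2 windows with different starts, so its single CHR site is counted in both, at -5 to 1 and at -30 to -25. These are matches of letters, and the arrays do not measure binding.

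**Figure D5:**
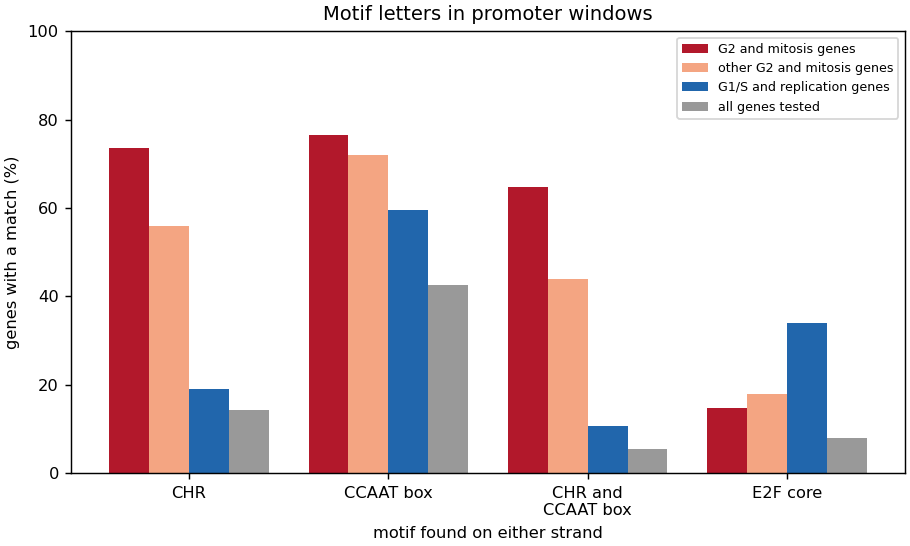
Percentage of genes whose promoter window of 300 bases holds the CHR letters, the CCAAT box, both, or an E2F core, for the G2 and mitosis genes (34 with a promoter), other G2 and mitosis genes, genes of S phase entry and replication, and all genes tested. Both CHR and CCAAT letters stand in 64.7% of the G2 and mitosis genes and in 5.6% of all genes tested.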

How the data were processed

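The unit was intensity: the deposited tables hold linear MAS5 signals of 45101 probe sets per array, which the authors computed by MAS5 in GCOS 1.4 (named in the submitters' processing notes), and every array has a 2% trimmed mean of 500. Control probe sets (64) were left out and values were taken as log2(signal + 16). Probe sets below the 40th percentile of mean level (5.38) were dropped, which left 27022, and the probe set with the highest mean stood for each of 12520 genes. Probe sets annotated with 1 symbol (34945) were named, 34741 of them updated by Entrez ID, and those with several symbols (932) or none (9160) were not used. All 4 groups were fitted together in limma 3.58.1 under R 4.3.3 (lmFit, eBayes with trend, 4 residual degrees of freedom), with Benjamini-Hochberg adjustment over all genes and 95% intervals from the same fit. The fit was run on simulated data with independent noise and few changed genes. That setting differs from these arrays, so the run does not measure the error rates of the fit here. The number of arrays, 2 in each group, limits the precision.

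The 40 members and all other lists were chosen with earlier results of these data known. All 40 members are described by role. Array values are given for Mki67, Top2a, Cdk1, Foxm1, Plk1, Aurkb and Birc5, for the 5 members with the lowest p in each comparison, for any member called against the majority, and, added after the values were seen, for Cdc20 and Ube2c. Up to 4 genes of each other list with the lowest p past the threshold were named. Promoters came from RefSeq (GRCm38.p6), where 34 of 40 members matched by symbol; Aurkb, Kif20a, Foxm1, Tpx2, Ccna2 and Smc4 were not used there. Alternatives were other scalings, pseudocounts, filters, probe set rules, fits and leaving out each array.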

Additional observations from a re-analysis of the deposited data

How the results depend on the processing

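The members called stayed within 1.5 times the reported count under every alternative run, and no median of the set changed sign under another scaling, pseudocount, filter or fit. WT N4 against WT non-pulsed cells gave 18 calls as reported, 20 with quantile scaling, 18 with arrays centred on their median (Ccnb2 lost at -1.44, Kif4 gained) and 16 with probe sets averaged per gene (Smc2, Ttk and Kif2c lost, Cenpa gained). With a replicate block it gave 25, PKCθ KO N4 against WT non-pulsed gave 22 and p50 cRel DKO N4 against WT non-pulsed 27. Calls over all 12520 genes rose with the block as well, from 5101, 5078 and 4917 to 6401, 6410 and 6307 in the same order. For the members, the 3 comparisons among N4 groups stayed at 0. The block's added calls in WT N4 were Bub1b, Cenpa, Spc25, Kif4, Kif20a, Ncapd2 and Mki67. The replicate numbers are shared only as labels, and deviations of same-numbered arrays correlated at 0.255 to 0.579 across genes. Between arrays of the same number, 38 of 39 members were lower in PKCθ KO N4 than in WT N4 cells for number 1 and 34 for number 2. In p50 cRel DKO N4 against WT N4 cells, 34 were lower for number 1 and 6 for number 2. Shares of all genes were not counted for these pairs of arrays, and most members shift together between the replicates of 3 groups, as given above. Leaving out each array gave 15 to 21 calls in WT N4, 12 to 18 in PKCθ KO N4 and 15 to 21 in p50 cRel DKO N4 cells against WT non-pulsed cells. The median of all genes in WT N4 minus WT non-pulsed cells was -0.10 as deposited, 0.09 after quantile scaling and 0.30 after centring, and the set's median was 0.56, 0.73 and 0.96 under the same settings. All genes called split into 2159 higher and 2942 lower as deposited, 2670 and 2403 after quantile scaling, and 2261 and 1442 after centring. Over all genes, p50 cRel DKO N4 against WT N4 cells gave 65 calls, 200 with a replicate block, 35 without a variance trend, 36 after centring and 13 to 75 with an array left out. The 2 knockouts differed in 54 genes, 152 with a replicate block, 17 without a trend, 36 after centring, 28 without a filter, 97 with these groups alone and 0 to 65 with an array left out. PKCθ KO N4 against WT N4 cells gave 3, 0 with quantile scaling, 1 with a pseudocount of 1 and 0 to 5 with an array left out. With 2 arrays in a group, 95% intervals of members were 0.49 to 2.98 log2 units wide, which limits what the tests between genotypes could call.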

Other observations

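Genes that brake division were counted as well. Of 21 measured, 3 were higher and 8 lower in WT N4 than in WT non-pulsed cells (limma, adjusted p under 0.05), with a median of -0.51, where 17.2% of all genes were higher and 23.5% lower. Gadd45a, a stress-induced inhibitor of Cdk1, averaged 6.45 ± 0.12 in WT N4 and 9.17 ± 0.14 in WT non-pulsed cells (SD, n = 2 each, log2 scale), a difference of -2.72 (adjusted p = 7.57e-05). Btg1, an antiproliferative gene of resting lymphocytes, differed by -0.97 and the CDK inhibitor Cdkn2b by -2.10. Pkmyt1, which holds Cdk1 inactive by phosphorylation, was higher by 1.10 (adjusted p = 0.000571). Against WT non-pulsed cells, 4 of the 21 were higher and 9 lower in PKCθ KO N4 cells (16.5% and 24% of all genes), and 3 were higher and 11 lower in p50 cRel DKO N4 cells (16.5% and 22.8% of all genes). None of the 21 passed between the N4 groups.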
